A study of Gallus gallus with 4 samples.

Results

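The unexposed trachea was described from 2 RNA sequencing libraries of chickens 42 days old that were kept in the control chamber of a hydrogen sulfide exposure study, a chamber to which no gas was added. They are 2 of the 4 libraries of the study and are called control replicates 1 and 2 here. The members were all libraries labelled as trachea with the stress label control, and the exposed libraries entered no step. The labels name no breed, sex or section of the trachea, and they do not state whether a library came from 1 bird or from several. Every difference below is therefore a difference between 2 libraries with the same label, with no replicate behind either side, and no test was made.

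The trachea is a tube of cartilage rings held together by connective tissue. In birds the rings are complete, and strips of striated muscle run along the outside of the tube. Its lining is an epithelium of ciliated cells, which move mucus, of mucous and secretory cells, and of basal cells that renew the others. Below it lie vessels and lymphoid tissue, in which plasma cells make antibodies that the polymeric immunoglobulin receptor carries to the surface.

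Control replicate 1 had 17400644 reads counted to genes and control replicate 2 had 16899066. Levels are given as CPM, a gene's reads divided by all reads counted in its library and multiplied by 1000000. CPM does not correct for transcript length, so a rank below is a rank of reads and not of transcripts. A single read was worth 0.0575 CPM in replicate 1 and 0.0592 CPM in replicate 2. Of 26296 genes in the table, 21015 had a read in at least 1 control library, and 14391 had at least 1 CPM in both. Genes typed mRNA took 98.5% of reads in each library, and lncRNA genes took 1.12% in replicate 1 and 1.14% in replicate 2. The 3 ribosomal RNA genes and the 13 mitochondrial genome genes are listed at 0 reads in both libraries, so nothing can be said of their levels. The libraries were not copies of each other, since the chi-square of their counts was 165 per degree of freedom.

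The libraries stood apart on the sex chromosomes. Of 13 genes placed on the W chromosome with at least 10 CPM in a library, 12 had 0 reads in replicate 1. The 477 genes on Z with that level had a median log2 difference of 0.63, replicate 1 over replicate 2, and the 9238 genes on numbered chromosomes had a median of 0.04. Genes named below that lie on Z or W are marked as such where they differ by 2-fold or more.

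Most genes had similar levels in both libraries, and a minority differed widely. The log2 difference was taken as replicate 1 over replicate 2 after adding 1 CPM to each, over the 10750 genes with at least 10 CPM in at least 1 library. A gene had to differ to enter through a single library far below that level in the other, and 9705 genes reached 10 CPM in both. The median log2 difference was 0.06, and 8366 genes (77.8%) lay within 1.5-fold. A difference of 2-fold or more was found for 970 genes (9.02%), of which 570 were higher in replicate 1 (5.30% of the genes compared) and 400 were higher in replicate 2 (3.72%). At 4-fold or more, 150 genes were higher in replicate 1 and 113 were higher in replicate 2. Across these genes Pearson's r of log2(CPM + 1) was 0.90 and Spearman's rho was 0.92, a description over genes, which are not independent replicates.

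**Figure D1:**
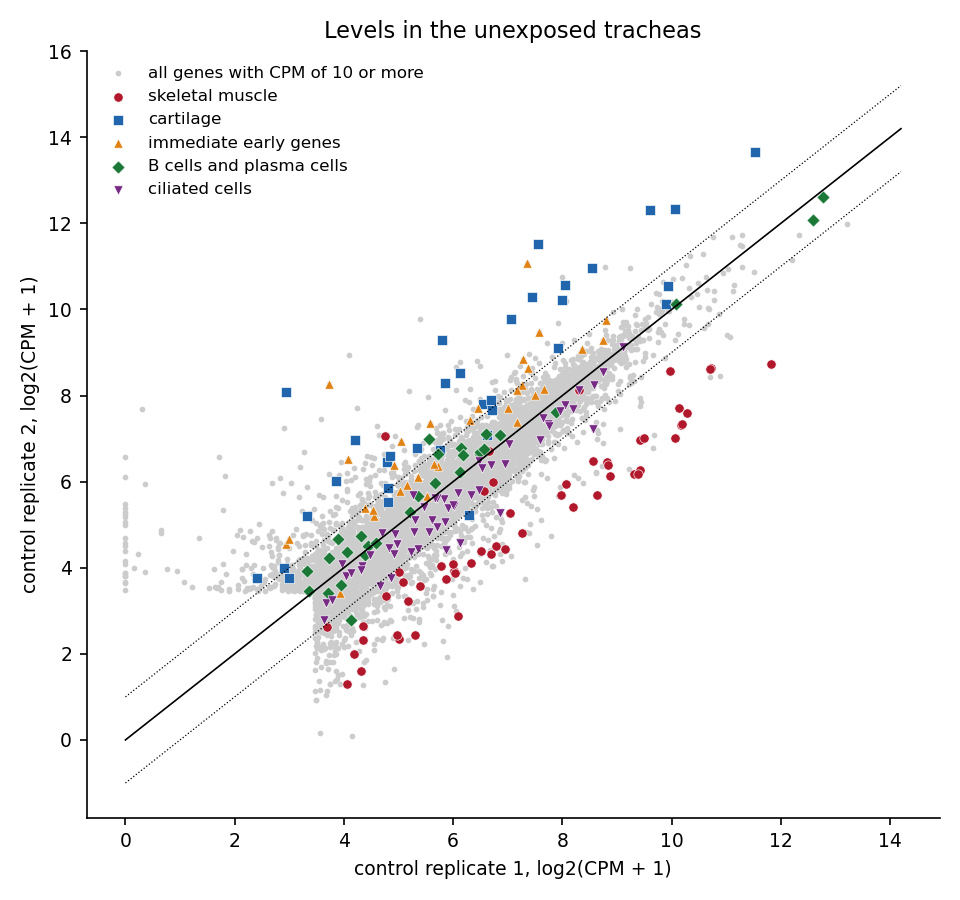
Each point is a gene with at least 10 CPM in a control library, placed by log2(CPM + 1) in control replicate 1 (horizontal) and control replicate 2 (vertical). The solid line marks equal levels and the dotted lines 2-fold. Most skeletal muscle genes lie below the lines and most cartilage genes above them, and most ciliated cell and B cell genes lie between them.

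Of the ranges from 1 CPM up, and with 1 CPM added, the spread was widest among the genes with most reads. In genes with a mean of 100 to 300 CPM the median absolute log2 difference was 0.22, and 5.58% of 2151 genes were past 2-fold. In the 62 genes with a mean of 1000 CPM or more the median was 0.64 and 30.6% were past 2-fold, 11 higher in replicate 1 and 8 higher in replicate 2. Counting error alone would give medians of 0.03 and 0.01 at these levels. Low genes, with a mean of 1 to 3 CPM, had a median of 0.41. Counting error alone would give 0.25 there, but for ratios without the added 1 CPM. Because that addition shrinks differences at low levels, the part of counting error cannot be read from these values there. Nor can low and high genes be ranked by their spread without the addition. At the high end counting error was a small part of the median.

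**Figure D2:**
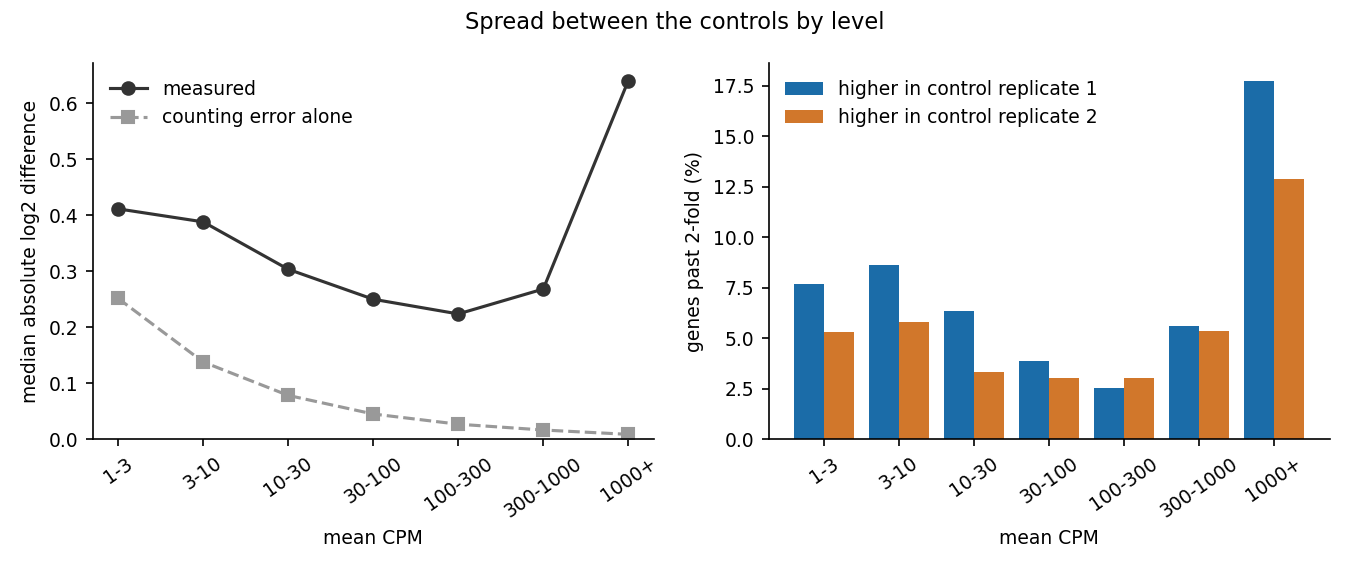
The left panel gives the median absolute log2 difference between the control libraries by mean CPM. Circles are as measured, and squares are as counting error alone would give without the added 1 CPM. The right panel gives the percent of genes in each range that were higher by 2-fold or more in control replicate 1 (left bars) and in control replicate 2 (right bars). The circles and the bars are highest in the last range, the 62 genes of 1000 CPM or more, where the squares are lowest.

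The genes that drew most reads included matrix and antibody genes. The 50 genes of highest mean CPM held 10.5% of reads in replicate 1 and 11.5% in replicate 2 (mean 11.0% ± 0.657, SD, n = 2). Ranked within each library, 29 genes were among the 50 highest of both. It took 1322 genes to hold 50% of the reads of replicate 1 and 1222 genes in replicate 2. First by mean was COL2A1, the chain of type II collagen and the main collagen of cartilage, with 2944 CPM in replicate 1 and 12980.4 CPM in replicate 2. Second was COL3A1, type III collagen of loose connective tissue, with 9511 CPM in replicate 1 and 4068 CPM in replicate 2. COL3A1 was first in replicate 1 and COL2A1 first in replicate 2. A gene listed as IGLL1, an immunoglobulin light chain gene, followed with 7030 CPM in replicate 1 and 6272 CPM in replicate 2. IGJ, the J chain that joins IgA and IgM into polymers, had 6154 CPM in replicate 1 and 4351 CPM in replicate 2.

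Further matrix genes stood close behind. COL1A2 and COL1A1, the chains of type I collagen, had 5182 and 4698 CPM in replicate 1 and 3393 and 2284 CPM in replicate 2. DCN, the small proteoglycan decorin, had 2502 CPM in replicate 1 and 3410 CPM in replicate 2. FN1, fibronectin, had 2193 CPM in replicate 1 and 3287 CPM in replicate 2. SPARC, a collagen-binding glycoprotein, and FBN1, fibrillin of elastic microfibrils, went opposite ways. SPARC had 1722 CPM in replicate 1 and 3274 CPM in replicate 2, and FBN1 had 2918 CPM in replicate 1 and 1875 CPM in replicate 2. A set of 41 genes listed as collagens, gathered after the values were seen, took 3.52% of reads in replicate 1 and 4.29% in replicate 2. Of the 34 with at least 10 CPM in a library, 5 were past 2-fold higher in replicate 1 and 10 in replicate 2. Over all genes compared, the shares were 5.30% and 3.72%.

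Genes used by nearly all cells were also among the 30 highest. EEF1A1, the elongation factor that brings tRNA to the ribosome, had 2453 CPM in replicate 1 and 2902 CPM in replicate 2. ACTB, cytoplasmic actin, had 1426 CPM in replicate 1 and 1560 CPM in replicate 2, and PSAP, a lysosomal precursor protein, had 2083 CPM in replicate 1 and 1972 CPM in replicate 2. SYNE1, a giant protein of the nuclear envelope, had 2505 CPM in replicate 1 and 2849 CPM in replicate 2. These 4 differed far less than the collagens around them. The loci LOC776816, LOC101750635 and LOC101750892, which have no gene name, had mean ranks of 19, 20 and 22.

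**Figure D3:**
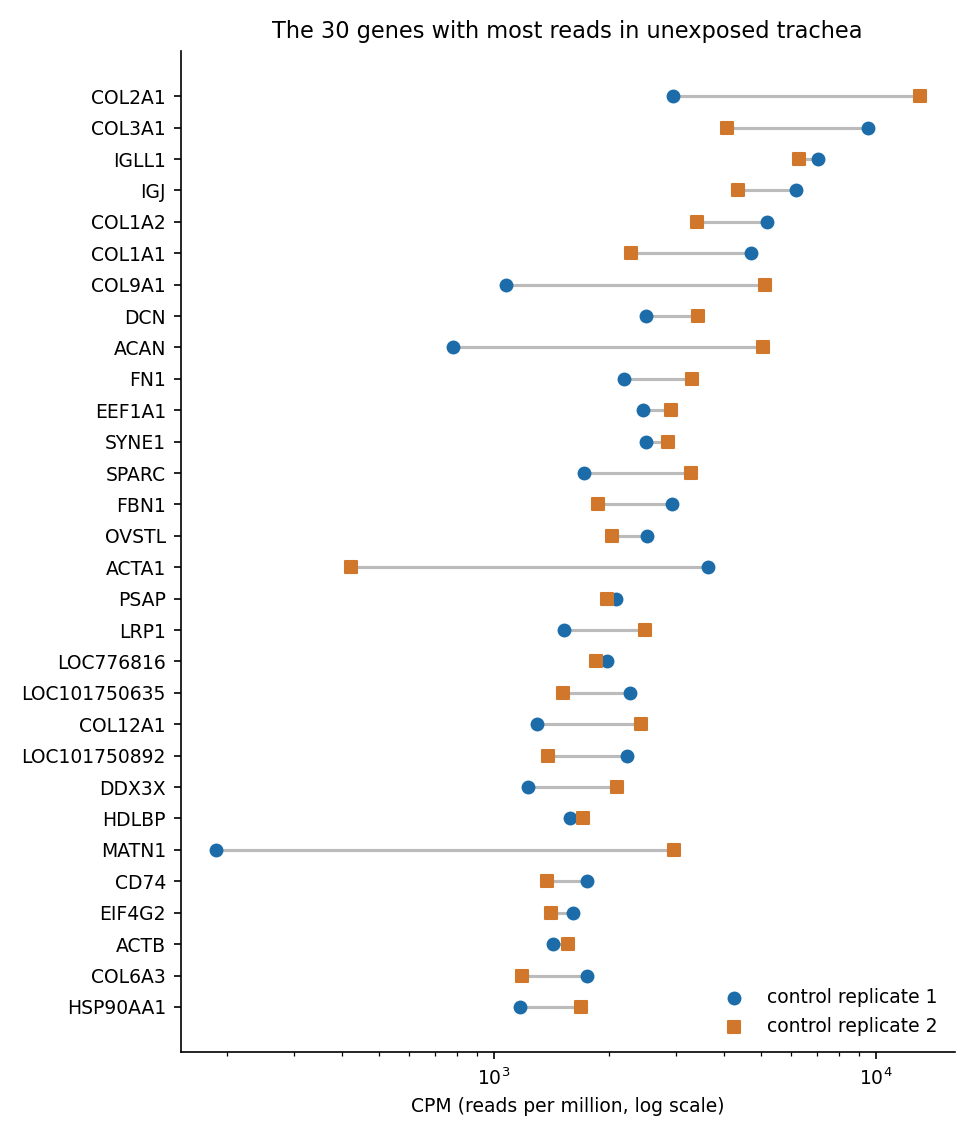
The 30 genes of highest mean CPM, highest at the top, with their CPM (log axis) in control replicate 1 (circles) and control replicate 2 (squares). The widest gaps are those of MATN1, ACTA1, ACAN, COL9A1 and COL2A1, and only ACTA1 of these is higher in control replicate 1.

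Mucous and secretory genes were high in both libraries and differed in both directions. Of 24 members of that list with at least 10 CPM in a library, 3 were higher by 2-fold or more in replicate 1 and 3 in replicate 2. That was 12.5% each way, against 5.30% and 3.72% of all genes compared, with a median log2 difference of 0.16. Together the list's genes held 6908 CPM in replicate 1 and 6252 CPM in replicate 2. PIGR, the polymeric immunoglobulin receptor, had 1649 CPM in replicate 1 and 1025 CPM in replicate 2, a log2 difference of 0.69. The gene listed as MUC, a mucin, had 912 CPM in replicate 1 and 1600 CPM in replicate 2, a log2 difference of -0.81. These lead genes of the lining thus differed in opposite directions, each by less than 2-fold.

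Among the other secreted products, TF, the iron-binding transferrin, had 1547 CPM in replicate 1 and 764 CPM in replicate 2. LYG2, a goose-type lysozyme that cuts bacterial walls, had 613 CPM in replicate 1 and 311 CPM in replicate 2. BPIL3, of the family of bacterial permeability-increasing proteins, went the other way, with 485 CPM in replicate 1 and 989 CPM in replicate 2. AQP5, a water channel of gland cells, had the list's largest difference, with 52.1 CPM in replicate 1 and 138 CPM in replicate 2, a log2 difference of -1.39. AGR2, which folds mucins in the secretory pathway, had 91.3 CPM in replicate 1 and 132 CPM in replicate 2. SPDEF, a transcription factor of mucous cells, had 16.7 CPM in replicate 1 and 38.2 CPM in replicate 2. Over the whole list, 14 of the 24 members were higher in replicate 1 and 10 in replicate 2. MUC16, a membrane mucin, was near equal, with 225 CPM in replicate 1 and 234 CPM in replicate 2. The list also holds genes hardly seen in either library: MUC2, the gut gel mucin, had 4.31 CPM in replicate 1 and 4.67 CPM in replicate 2, and BPIFB2 had no read.

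Ciliated cell genes were widely detected. Of 87 list entries 63 matched a gene in the table, all 63 had reads, and 56 reached 10 CPM in a library, among them the defining markers FOXJ1, DNAH5, DNAI1, RSPH1 and TEKT1. The axonemal dynein heavy chains, motors that bend the cilium, led the list. DNAH9 had 553 CPM in replicate 1 and 557 CPM in replicate 2, and DNAH5 had 428 CPM in replicate 1 and 371 CPM in replicate 2. TUBB4B, a beta tubulin of the axoneme, had 383 CPM in replicate 1 and 302 CPM in replicate 2. FOXJ1, the master transcription factor of motile cilia, had 199 CPM in replicate 1 and 178 CPM in replicate 2. These 4 genes thus differed by less than 1.5-fold between the libraries.

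The ciliated list as a whole lay slightly toward replicate 1. Its median log2 difference was 0.41, with 51 of 56 members above 0, against a median of 0.06 over all genes compared. Of these members 6 (10.7%, against 5.30% of all genes compared) were past 2-fold higher in replicate 1 and none in replicate 2. CAPSL, a calcium-binding protein of ciliated cells, had 116 CPM in replicate 1 and 37.9 CPM in replicate 2. DNAI1, an intermediate chain of the outer dynein arm, had 68.5 CPM in replicate 1 and 22.9 CPM in replicate 2. SPEF2, a protein of the central pair of the axoneme, had 376 CPM in replicate 1 and 149 CPM in replicate 2. All 3 lie on Z. Among the 51 members on numbered chromosomes, 3 were past 2-fold higher in replicate 1 and none in replicate 2, with a median of 0.37 and 46 above 0. Over all genes compared on those chromosomes, 4.17% were past 2-fold higher in replicate 1. In bulk tissue, fewer cells of a type and less RNA per cell cannot be told apart, here or for any list below.

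Genes of basal cells and of the epithelium in general were close. In the basal and squamous list, 18 members reached 10 CPM, with a median log2 difference of 0.06. None was past 2-fold higher in replicate 1, and 1 (5.56%, against 3.72% of all genes compared) was in replicate 2. KRT5, a keratin of basal cells, had 74.3 CPM in replicate 1 and 109 CPM in replicate 2. TP63, the basal cell transcription factor, had 89.5 CPM in replicate 1 and 69.2 CPM in replicate 2. The exception was KRT14, the partner keratin of KRT5, with 15.6 CPM in replicate 1 and 53.8 CPM in replicate 2. SPINK5, a protease inhibitor of stratified epithelium, had 395 CPM in each library.

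The general epithelial list had 27 members at that level, with a median of 0.28. In each direction 1 was past 2-fold (3.70%, against 5.30% and 3.72% of all genes compared). KRT7, a keratin of simple epithelium, had 864 CPM in replicate 1 and 711 CPM in replicate 2, and EPCAM, an epithelial adhesion molecule, had 539 CPM in replicate 1 and 488 CPM in replicate 2. AQP4, a water channel, was its widest member, with 24.7 CPM in replicate 1 and 5.38 CPM in replicate 2. In the list of ion and fluid transport, 2 of 13 members (15.4%, against 5.30% of all genes compared) were past 2-fold higher in replicate 1 and none in replicate 2. They were ATP12A, a proton pump, with 433 CPM in replicate 1 and 207 CPM in replicate 2, and ATP1B1, a subunit of the sodium pump, with 464 CPM in replicate 1 and 229 CPM in replicate 2. Both fell within 2-fold under TMM and DESeq2 scaling. CFTR, the chloride channel of airway epithelium, had 17.01 CPM in replicate 1 and 14.7 CPM in replicate 2.

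Cartilage genes were high in both libraries and much higher in replicate 2. The list's genes held 0.928% of reads in replicate 1 and 3.93% in replicate 2, a 4.24-fold gap. Of 33 members with at least 10 CPM in a library, 25 (75.8%, against 3.72% of all genes compared) were past 2-fold higher in replicate 2. In replicate 1 there was 1 (3.03%, against 5.30%), and 15 were past 4-fold in replicate 2. The median log2 difference was -1.75, with quartiles of -2.44 and -1.03.

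The difference ran through the parts of the cartilage matrix. COL2A1, given above, was 4.41-fold higher in replicate 2. COL9A1, a chain of the type IX collagen that coats its fibrils, had 1072 CPM in replicate 1 and 5127 CPM in replicate 2. ACAN, aggrecan, the large proteoglycan that holds water in cartilage, had 781 CPM in replicate 1 and 5056 CPM in replicate 2. MATN1, matrilin of cartilage and a marker of trachea rings, had 187 CPM in replicate 1 and 2959 CPM in replicate 2, a 15.8-fold gap with a counting interval (95%, exact binomial) of the log2 ratio from -4.04 to -3.93. MATN3, its relative, had 54.7 CPM in replicate 1 and 623 CPM in replicate 2. EPYC, epiphycan, a small proteoglycan of growing cartilage, had the list's largest gap, with 6.67 CPM in replicate 1 and 270 CPM in replicate 2, a log2 difference of -5.15. LECT1, chondromodulin, which keeps vessels out of cartilage, had 172 CPM in replicate 1 and 1251 CPM in replicate 2. SOX9, the transcription factor that sets the chondrocyte fate, had 27.9 CPM in replicate 1 and 96.3 CPM in replicate 2.

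A few members of the list did not share the gap. COMP, a matrix protein that tendon makes as well, had 953 CPM in replicate 1 and 1118 CPM in replicate 2. MGP, an inhibitor of calcification found in many tissues, had 979 CPM in replicate 1 and 1492 CPM in replicate 2. OGN, a small proteoglycan of connective tissue, was the member higher in replicate 1, with 77.8 CPM there and 36.5 CPM in replicate 2. COL10A1, the collagen of hypertrophic cartilage, was low, with 3.39 CPM in replicate 1 and 1.07 CPM in replicate 2. In the list for bone and mineralization, which shares SPARC with the fibroblast list, 6 of 17 members reached 10 CPM. All 6 were higher in replicate 2, 1 of them past 2-fold (16.7%, against 3.72% of all genes compared), with a median of -0.50. ENPP1, an enzyme that makes pyrophosphate, had 88.0 CPM in replicate 1 and 122 CPM in replicate 2. IBSP and SP7, markers of bone-forming cells, had no read.

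Enzymes and chaperones that fold collagen and other secreted proteins lay mostly below 0. Of 35 members of that list, none was past 2-fold higher in replicate 1 and 2 (5.71%, against 3.72% of all genes compared) were in replicate 2, with a median of -0.38 and 32 members below 0. The 2 were FKBP9, a chaperone of the endoplasmic reticulum, with 269 CPM in replicate 1 and 1164 CPM in replicate 2, and PLOD2, which hydroxylates collagen lysines, with 240 CPM in replicate 1 and 828 CPM in replicate 2. Whether these came with the cartilage genes was not tested.

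Skeletal muscle genes showed the opposite pattern and were much higher in replicate 1. The list's genes held 2.23% of reads in replicate 1 and 0.441% in replicate 2, a 5.05-fold gap. Of 54 members with at least 10 CPM in a library, 49 (90.7%, against 5.30% of all genes compared) were past 2-fold higher in replicate 1. In replicate 2 there was 1 (1.85%, against 3.72%), and 38 were past 4-fold in replicate 1. The median log2 difference was 2.24, with quartiles of 1.84 and 2.71.

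Thin filament, thick filament and calcium handling genes all took part. ACTA1, skeletal muscle actin, had 3638 CPM in replicate 1 and 422 CPM in replicate 2, an 8.62-fold gap with a counting interval of the log2 ratio from 3.07 to 3.14. NEB, nebulin, a ruler of the thin filament, had 1683 CPM in replicate 1 and 397 CPM in replicate 2. TNNT3, the fast fibre troponin, had 721 CPM in replicate 1 and 129 CPM in replicate 2. MYH1A, a fast myosin heavy chain, had 1155 CPM in replicate 1 and 159 CPM in replicate 2. Myosin heavy chain genes of the MYH1 cluster are close copies, and reads may have been split among them in the counting. ATP2A1, the calcium pump of fast fibres, had 451 CPM in replicate 1 and 86.2 CPM in replicate 2. CKM, muscle creatine kinase, had 123 CPM in replicate 1 and 20.6 CPM in replicate 2, and MYOD1, a transcription factor of the muscle lineage, had 35.1 CPM in replicate 1 and 8.34 CPM in replicate 2.

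TNNC1, the slow fibre and heart troponin C, had 18.8 CPM in replicate 1 and 2.01 CPM in replicate 2. MYH7, the slow myosin of mammals, was near 0 in both, with 0.862 CPM in replicate 1 and 0.828 CPM in replicate 2. MYH1D, another gene of the MYH1 cluster, was the only member past 2-fold higher in replicate 2, with 26.1 CPM in replicate 1 and 132 CPM in replicate 2. MYH13, known as a very fast myosin of mammalian eye and larynx muscles, is outside the list and had 1.55 CPM in replicate 1 and 24.8 CPM in replicate 2. FBXO32, a ubiquitin ligase of muscle breakdown that other tissues also make, was near equal, with 99.9 CPM in replicate 1 and 105 CPM in replicate 2.

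Several genes shared by muscle and other cells were also higher in replicate 1. GAPDH, the glycolytic enzyme often used as a reference gene, had 2069 CPM in replicate 1 and 674 CPM in replicate 2, a log2 difference of 1.62. LDHA, lactate dehydrogenase, had 692 CPM in replicate 1 and 229 CPM in replicate 2, and PFKM, the muscle form of phosphofructokinase, had 185 CPM in replicate 1 and 40.2 CPM in replicate 2. In the glycolysis and hypoxia list 4 of 31 members (12.9%, against 5.30% of all genes compared) were past 2-fold higher in replicate 1. None was in replicate 2, and the median was 0.14. EEF1A2, the elongation factor form of muscle and nerve, had 594 CPM in replicate 1 and 78.1 CPM in replicate 2, whereas EEF1A1 was 1.18-fold higher in replicate 2. HSPB1, a small heat shock protein abundant in muscle, had 221 CPM in replicate 1 and 25.9 CPM in replicate 2, while the 32 heat shock genes had a median of -0.21. All 49 nuclear genes of the respiratory chain were higher in replicate 1, with a median of 0.57. Past 2-fold were 4 (8.16%, against 5.30% of all genes compared). However, NDUFV3, at 0.03, was lower in replicate 1 under TMM or DESeq2 scaling. Of the 4 past 2-fold 3 lie on Z, and the 45 on numbered chromosomes had a median of 0.54. Their part in, or dependence on, the muscle difference was not tested.

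**Figure D4:**
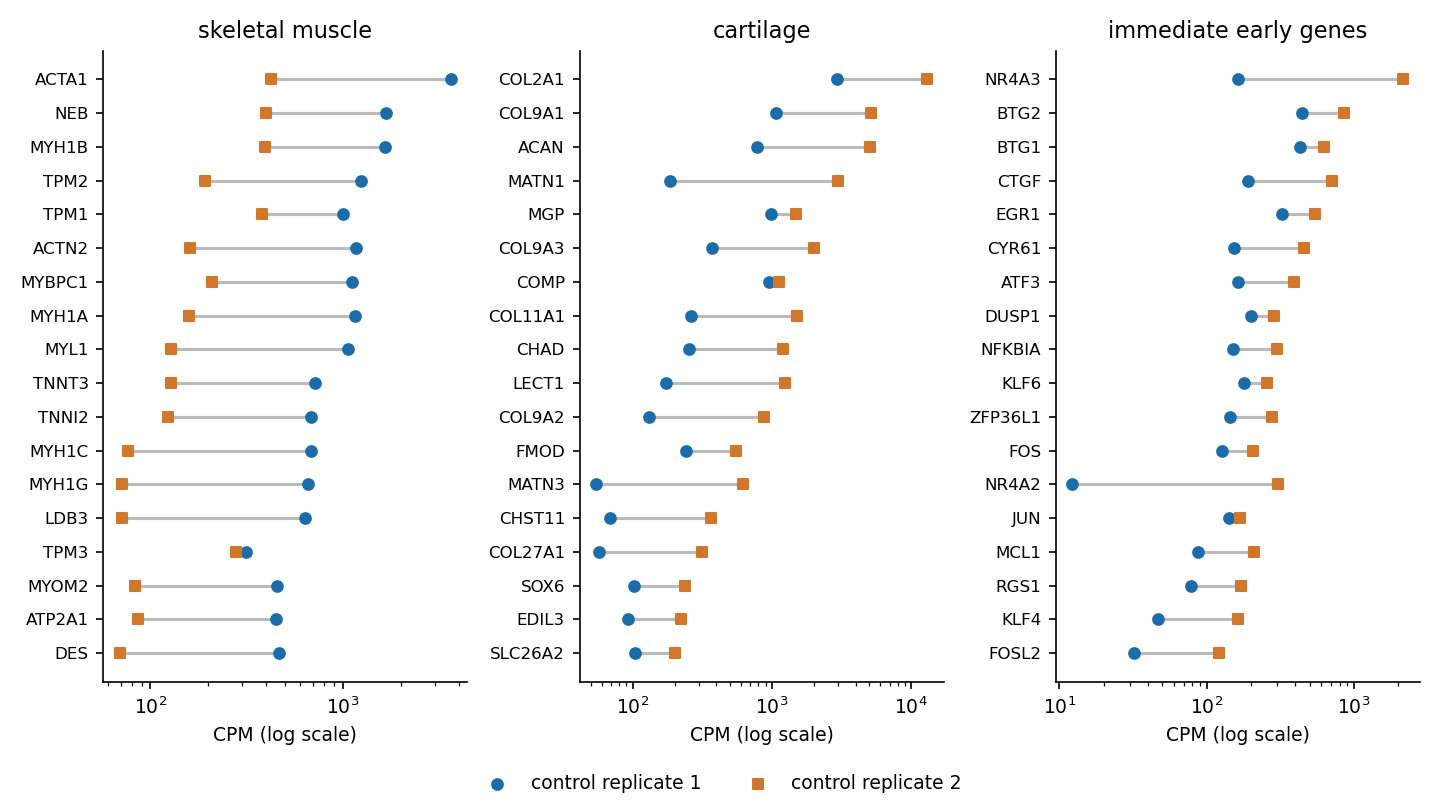
CPM (log axis) in control replicate 1 (circles) and control replicate 2 (squares) for the 18 genes of highest mean CPM in 3 lists. All 18 skeletal muscle genes are higher in control replicate 1, TPM3 by the least, and all 18 cartilage and all 18 immediate early genes are higher in control replicate 2.

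Smooth muscle and pericyte genes differed less than those of skeletal muscle. Without the members that are also on another list, 5 of 18 were past 2-fold higher in replicate 1 and 1 in replicate 2, with a median of 0.43. Over all genes compared, the shares were 5.30% and 3.72%. The highest of these, DSTN, an actin-severing protein of many cells, had 557 CPM in replicate 1 and 501 CPM in replicate 2. ACTA2, smooth muscle actin, had 146 CPM in replicate 1 and 83.4 CPM in replicate 2. MYH11, the smooth muscle myosin, had 12.2 CPM in replicate 1 and 6.45 CPM in replicate 2, and CNN1, calponin, had 3.39 CPM in replicate 1 and 5.98 CPM in replicate 2.

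Genes of fibroblasts and extracellular matrix took a large share of reads, 4.44% in replicate 1 and 3.50% in replicate 2. Of 38 members, 7 (18.4%, against 5.30% of all genes compared) were past 2-fold higher in replicate 1. In replicate 2 there were 3 (7.89%, against 3.72%), and the median was 0.29. COL3A1 was 2.34-fold and COL1A1 was 2.06-fold higher in replicate 1, and COL1A1 fell within 2-fold under TMM and DESeq2 scaling. MFAP5, a microfibril protein, was the widest, with 681 CPM in replicate 1 and 217 CPM in replicate 2. POSTN, periostin, had 1616 CPM in replicate 1 and 803 CPM in replicate 2, whereas COL5A1, which starts collagen fibrils, was near equal with 980 CPM in replicate 1 and 996 CPM in replicate 2. COL12A1, which links collagen fibrils to their surroundings, went the other way, with 1295.5 CPM in replicate 1 and 2425 CPM in replicate 2.

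Vessels, fat and nerve were present at lower levels. Of 27 endothelial genes 1 (3.70%, against 5.30% of all genes) was past 2-fold higher in replicate 1, none in replicate 2, and the median was 0.19. VWF, the clotting factor of endothelium, had 730 CPM in replicate 1 and 506 CPM in replicate 2, and PECAM1, an endothelial adhesion molecule, had 298 CPM in replicate 1 and 277 CPM in replicate 2. ADIPOQ, the hormone adiponectin of fat cells, had 60.5 CPM in replicate 1 and 33.7 CPM in replicate 2. Of 16 fat genes, 2 were past 2-fold higher in replicate 1 (12.5%, against 5.30% of all genes) and 1 in replicate 2 (6.25%, against 3.72%). Of 9 nerve and glia genes, none was higher past 2-fold in replicate 1 and 1 (11.1%, against 3.72%) was in replicate 2. That gene, EGR2, is also on the immediate early list. The 9 genes had a median of 0.45, with 7 above 0. Without members on another list, none of 7 was past 2-fold in either direction. HBAA, an adult alpha globin, had 27.1 CPM in replicate 1 and 24.6 CPM in replicate 2, low in both. Of 7 red cell and platelet genes, 2 were past 2-fold higher in replicate 1 (28.6%, against 5.30% of all genes). In replicate 2 there was 1 (14.3%, against 3.72%).

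Markers of neighbouring organs were low. FOXE1, the highest member of that list, had 29.7 CPM in replicate 1 and 27.8 CPM in replicate 2. SLC5A5, its widest, was past 2-fold higher in replicate 1, with 14.0 CPM there and 4.67 CPM in replicate 2. TG, thyroglobulin, went the other way, with 8.16 CPM in replicate 1 and 13.8 CPM in replicate 2. FOXN1, the thymus epithelial factor, had 0.345 CPM in replicate 1 and 0.0592 CPM in replicate 2.

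Antibody genes were high in both libraries, and those with most reads were close between them. Genes of B cells and plasma cells held 1.56% of reads in replicate 1 and 1.34% in replicate 2. Of 29 members 1 was past 2-fold in each direction (3.45%, against 5.30% and 3.72% of all genes compared). The median log2 difference was -0.20 with 21 members below 0. Immunoglobulin genes form families of similar copies, so reads could have been split among them. IGLL1 and IGJ differed by 1.12-fold and 1.41-fold, both higher in replicate 1. VH26L1, an immunoglobulin heavy chain variable gene, had 1080 CPM in replicate 1 and 1110 CPM in replicate 2. Of the 4 VH26L genes with at least 10 CPM in a library, 1 was past 2-fold higher in replicate 1 and none in replicate 2. PAX5, the B lineage transcription factor, had 94.1 CPM in replicate 1 and 108 CPM in replicate 2, and CD79B, a chain of the B cell receptor, had 18.9 CPM in replicate 1 and 25.7 CPM in replicate 2. CXCR4, a homing receptor of many immune cells, was the list's widest member, with 46.3 CPM in replicate 1 and 127 CPM in replicate 2.

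T cell genes were low and leaned toward replicate 2. Of 24 members, 1 was past 2-fold higher in replicate 1 (4.17%, against 5.30% of all genes) and 2 were in replicate 2 (8.33%, against 3.72%), with a median of -0.29 and 20 members below 0. CD3E, a chain of the T cell receptor complex, had 83.2 CPM in replicate 1 and 125 CPM in replicate 2. TCF7, a factor of naive and memory T cells, had 18.6 CPM in replicate 1 and 52.6 CPM in replicate 2, whereas GZMA, a granzyme of killer cells whose gene lies on Z, had 16.4 CPM in replicate 1 and 5.80 CPM in replicate 2. CD8A, the co-receptor of cytotoxic T cells, had 5.80 CPM in replicate 1 and 9.53 CPM in replicate 2. In the list of lymphoid tissue chemokines and stroma, none of 15 members was past 2-fold higher in replicate 1. In replicate 2 there were 2 (13.3%, against 3.72%), and the median was -0.39. This list shares CCL5 and CCR7 with the T cell list. Without members on another list, 1 of 13 was past 2-fold higher in replicate 2, and 1 of 23 in the T cell list.

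Genes of antigen presentation and of innate immunity were also expressed without exposure. CD74, the invariant chain that guides class II molecules, had 1746 CPM in replicate 1 and 1374 CPM in replicate 2. BF2, a class I gene of the chicken histocompatibility complex, had 1444 CPM in replicate 1 and 1072 CPM in replicate 2, with reads that its near copy BF1 could share. Of the 18 genes of that list 1 (5.56%, against 5.30% of all genes) was past 2-fold higher in replicate 1 and none in replicate 2. It was ERAP1 on Z, a peptide-trimming enzyme, which fell within 2-fold under TMM and DESeq2 scaling. Macrophage, dendritic cell and heterophil genes had 2 of 33 past 2-fold in replicate 1 (6.06%, against 5.30% of all genes) and 1 in replicate 2 (3.03%, against 3.72%), with a median of 0.17. CYBB, the phagocyte oxidase, had 52.9 CPM in replicate 1 and 57.7 CPM in replicate 2, and MARCO, a scavenger receptor, had 2.99 CPM in replicate 1 and 4.91 CPM in replicate 2.

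Defence proteins leaned toward replicate 1. Of 12 members 3 (25%, against 5.30% of all genes) were past 2-fold in replicate 1, none were in replicate 2, and the median was 0.86. Among the 3, TF, given above, fell within 2-fold under TMM and DESeq2 scaling. LPO, lactoperoxidase of airway secretions, had 1876 CPM in replicate 1 and 952 CPM in replicate 2. NOS2, the inducible nitric oxide synthase, had 869 CPM in replicate 1 and 746 CPM in replicate 2. AVD, the biotin-binding avidin, on Z, had 114 CPM in replicate 1 and 27.5 CPM in replicate 2. DUOX2, which makes the hydrogen peroxide that lactoperoxidase uses, had 26.1 CPM in replicate 1 and 7.28 CPM in replicate 2. The avian beta-defensins were scarce, AvBD5 having 3.45 CPM in replicate 1 and 1.83 CPM in replicate 2. The 24 interferon-stimulated genes had none past 2-fold in either direction, against 5.30% and 3.72% of all genes, and a median of -0.02.

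Immediate early genes, transcription factors and regulators that cells switch on quickly after a stimulus, were higher in replicate 2. Of 32 members none was past 2-fold higher in replicate 1 and 13 (40.6%, against 3.72% of all genes compared) were in replicate 2. The median was -0.96, 31 of 32 lay below 0, and the list held 3483 CPM in replicate 1 and 8993 CPM in replicate 2. The NR4A nuclear receptors stood out. NR4A3 had 162 CPM in replicate 1 and 2165 CPM in replicate 2, a 13.3-fold gap. NR4A2 had 12.2 CPM in replicate 1 and 306 CPM in replicate 2, a log2 difference of -4.53. CTGF, a matrix growth factor, had 190 CPM in replicate 1 and 708 CPM in replicate 2. The best known members differed less: FOS had 127 CPM in replicate 1 and 207 CPM in replicate 2, and JUN had 143 CPM in replicate 1 and 167 CPM in replicate 2. The labels give no time between death and freezing and no RNA integrity value per library, so a link with tissue handling was not tested.

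Genes of cell division and translation differed little. Of all genes compared, 5.30% were past 2-fold higher in replicate 1 and 3.72% in replicate 2. None of 49 cell cycle genes was past 2-fold in either direction after the added 1 CPM, with a median of 0.04. MELK, a mitotic kinase on Z, came closest with 25.7 CPM in replicate 1 and 12.5 CPM in replicate 2, a ratio of 2.06 without it. MKI67, a marker of dividing cells, had 224 CPM in replicate 1 and 242 CPM in replicate 2. None of 73 cytosolic ribosomal protein genes was past 2-fold in either direction on that scale, but 54 lay below 0, with a median of -0.22. RPL22 had 8.10 CPM in replicate 1 and 17.2 CPM in replicate 2, which passed 2-fold under TMM scaling, with a log2 difference of -1.06. Of 23 translation factors only EEF1A2 was past 2-fold, higher in replicate 1 (4.35%, against 5.30% of all genes compared).

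**Figure D5:**
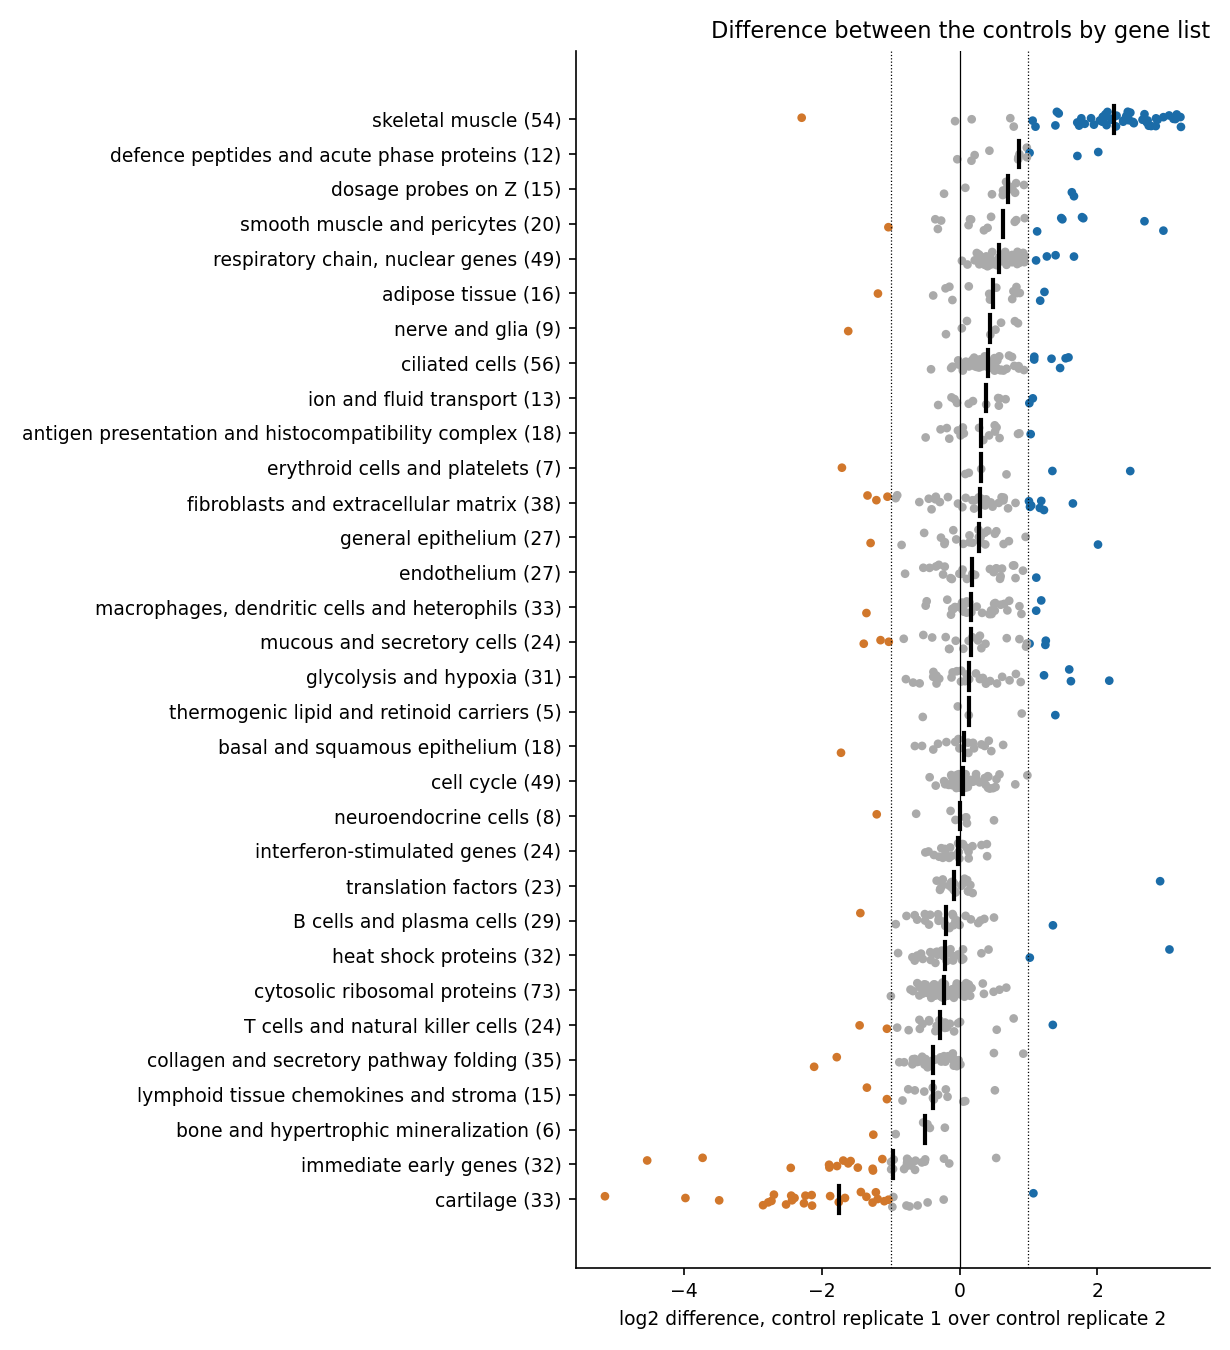
Points are list members with at least 10 CPM in a control library, placed by their log2 difference, control replicate 1 over control replicate 2, with the number of such members in parentheses and a bar at the list's median. Dotted lines mark 2-fold, blue points are higher in control replicate 1 by that much and orange points in control replicate 2. The lists of W-linked genes and of neighbouring organs, with 3 and 4 such members, are not drawn. Among the lists drawn, skeletal muscle lies farthest to the right and cartilage farthest to the left.

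The skeletal muscle, cartilage and immediate early lists account for a small part of all large differences. Skeletal muscle genes were 49 of the 570 genes past 2-fold higher in replicate 1 (8.60%) and 16 of the 50 largest in that direction. Cartilage genes were 25 of the 400 higher in replicate 2 (6.25%) and 3 of the 50 largest. Immediate early genes were 13 of those 400 (3.25%) and 2 of the 50 largest.

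The largest named differences toward replicate 1 were mostly muscle genes. MYLK4, a myosin light chain kinase, had 159 CPM in replicate 1 and 12.4 CPM in replicate 2, a log2 difference of 3.57. MYL2, the regulatory light chain of slow and heart muscle, had 25.9 CPM in replicate 1 and 1.54 CPM in replicate 2. SYPL2, a membrane protein of the muscle triad, had 29.3 CPM in replicate 1 and 2.13 CPM in replicate 2. An exception was OLFM4, olfactomedin, a secreted glycoprotein of mucosal cells, with 809 CPM in replicate 1 and 109 CPM in replicate 2. In absolute terms, CMYA5, a muscle protein, had 1886 CPM in replicate 1 and 352 CPM in replicate 2, and its gene lies on Z. Among unnamed loci, LOC107049096 had 291 reads in replicate 1 and 1 read in replicate 2. LOC420209, matched to the carbonic anhydrase gene CA3B, had 58.3 CPM in replicate 1 and 2.78 CPM in replicate 2.

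Toward replicate 2 the largest differences were of several kinds. Many were genes of the W chromosome. LOC427025, on W, had 0 reads in replicate 1 and 1588 reads in replicate 2, at least 545-fold higher in replicate 2 against a floor of 3 reads. UBE2R2L, on W, had 0 reads in replicate 1 and 593 reads in replicate 2, at least 204-fold higher. LOC100859072, a long noncoding RNA gene on Z, had 4 reads in replicate 1 and 3469 reads in replicate 2. Of the 477 genes on Z, 413 had a log2 difference above 0.

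The genes named next lie on numbered chromosomes, except CD69, which has no chromosome in the reference table. C18H17ORF67, matched to C17orf67, had 16.0 CPM in replicate 1 and 494 CPM in replicate 2, a log2 difference of -4.86. CD69, a marker of early lymphocyte activation, had 6.44 CPM in replicate 1 and 150 CPM in replicate 2, while the T cell list differed by a median of only -0.29. CYTL1, a secreted protein of cartilage, had 56.9 CPM in replicate 1 and 620 CPM in replicate 2, and BMP3, a bone morphogenetic protein, had 7.13 CPM in replicate 1 and 62.0 CPM in replicate 2. CAPN14, a calpain protease of squamous epithelium in humans, had 17.9 CPM in replicate 1 and 208 CPM in replicate 2. In absolute terms, CCDC80, a matrix-binding protein, had 438 CPM in replicate 1 and 2026 CPM in replicate 2, and THBS1, thrombospondin, had 606 CPM in replicate 1 and 1982 CPM in replicate 2. VIT, vitrin, a matrix protein, had 252 CPM in replicate 1 and 1727 CPM in replicate 2.

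At the other end, some genes of 500 CPM or more hardly differed. GNB1, a G protein subunit, had 516 CPM in each library. LY75, an endocytic receptor of dendritic and epithelial cells, had 670.1 CPM in replicate 1 and 671 CPM in replicate 2. CLTC, the clathrin heavy chain, had 745 CPM in replicate 1 and 749 CPM in replicate 2, and FAT1, a large cadherin, had 633 CPM in replicate 1 and 631 CPM in replicate 2. OIP5-AS1, a long noncoding RNA gene, had 994 CPM in replicate 1 and 996 CPM in replicate 2. Its reads cannot be told from those of an overlapping gene, because the use of strand in the counting is not given. Long noncoding RNA genes as a class were less steady: of 286 with at least 10 CPM in a library, 38 (13.3%) were past 2-fold higher in replicate 1 and 31 (10.8%) in replicate 2, against 525 and 360 of 10403 mRNA genes.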

How the data were processed

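Total RNA of trachea was sequenced, and the authors deposited whole-number read counts per gene in 1 table. Reads were aligned with HISAT2, per the submitters' processing notes, without a version. The counter, build, annotation and strandedness were not given in the sources used here. Reads of similar or overlapping genes are therefore uncertain. Columns were assigned by sample title. Only the 2 control columns were used, with 17400644 and 16899066 counted reads.

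CPM was computed from the counts with Python 3.11.15 (pandas 2.3.3, numpy 2.4.6). The log2 difference used a pseudocount of 1 CPM over genes with at least 10 CPM in at least 1 control library. Intervals (95%, exact binomial on the raw ratio, scipy 1.17.1) and floors of 3 reads cover counting error only. The interval has no pseudocount. The code was tested on simulated data. TMM factors (edgeR 4.0.16) and size factors (DESeq2 1.42.0, R 4.3.3) served as alternatives.

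Gene names and chromosomes came from a RefSeq table of assembly GRCg7b, in which 17537 names were found. Of 1183 entries in 34 lists, 171 had no match, and 13 doubtful synonyms were not used. Members and lists were chosen with earlier results of these data known. Named genes were the 30 of highest mean CPM, in each list the 4 highest and the widest, the 20 largest differences per direction (5 for unnamed loci), the 10 largest CPM differences, the 10 steadiest of at least 500 CPM, and COL2A1, PIGR, IGLL1 and MUC. Other genes named were chosen after their values were seen. No sequences or transcript lengths were used here. Some items that the rule takes are not reported here.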

Additional observations from a re-analysis of the deposited data

How the results depend on the processing

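The 2-fold counts depended most on the filter on low values. With at least 10 CPM required in both libraries, 316 genes were higher in replicate 1 and 248 in replicate 2, in place of 570 and 400. With at least 1 CPM in a library, 913 were higher in replicate 1 and 648 in replicate 2. No filter gave the same counts by construction, since 2-fold after the added 1 CPM needs at least 1 CPM in a library. Scaling moved them less: 494 and 437 with TMM, 487 and 442 with DESeq2 size factors. Without genes off the numbered chromosomes they were 385 and 320, and without the muscle, cartilage and immediate early lists 520 and 361. These alternatives, and the count within 1.5-fold, were added after the data were seen. That count was 16739 with no filter. The share of the 50 highest genes was 11.2% to 12.0% when each library was ranked alone. Immediate early genes passed a median of -1 under TMM and DESeq2 scaling. Of 94 named genes past 2-fold, 5 fell within 2-fold under another scaling, while 3 others passed it. None of the 94 changed sign over 4 alternatives of scaling and pseudocount, but none could have. A pseudocount keeps the sign, and the scalings shifted the log2 differences by far less than 2-fold. Ranking per coding length was not run. No paired analysis was possible because a single group of 2 libraries was used and no result came from a test. With 1 library on each side, depth limits low genes and replication limits all others.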

Other observations

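Common reference genes were compared after the values were seen. Of 16 such genes, 15 lay within 1.5-fold between the control libraries and 1, GAPDH, was past 2-fold. Over all genes compared, 77.8% lay within 1.5-fold and 9.02% were past 2-fold in either direction. The absolute log2 difference of GAPDH stood at the 96.6th percentile among 2640 genes with a mean of at least 100 CPM. TBP, the TATA-binding protein, had 45.3 CPM in replicate 1 and 44.4 CPM in replicate 2. PPIA, cyclophilin A, had 214 CPM in replicate 1 and 225 CPM in replicate 2, and HPRT1, a purine salvage enzyme, had 75.9 CPM in replicate 1 and 57.1 CPM in replicate 2.

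Genes known from lung epithelium, also looked at after the values were seen, did not behave alike. SFTPC, a surfactant protein, had 0 reads in replicate 1 and 117 reads in replicate 2, and CLDN18, a tight junction protein of lung and stomach, had 0 reads in replicate 1 and 136 reads in replicate 2. Against a floor of 3 reads these are at least 40.2-fold and at least 46.7-fold higher in replicate 2. SFTPA1, another surfactant protein, had 12.5 CPM in replicate 1 and 14.0 CPM in replicate 2. ABCA3, the lipid pump of surfactant bodies, had 292 CPM in replicate 1 and 203 CPM in replicate 2, and NKX2-1, a transcription factor of lung and thyroid, had 18.5 CPM in replicate 1 and 12.7 CPM in replicate 2.

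Of the further loci without a symbol of their own that were strongly higher in replicate 2, 2 are given as examples, chosen after their values were seen. LOC101750594, matched to MSMB, a secreted protein of mucosal glands, had 2.30 CPM in replicate 1 and 93.7 CPM in replicate 2. LOC418836, matched to REG1A, a secreted lectin of the gut and pancreas in mammals, had 10 reads in replicate 1 and 458 reads in replicate 2.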
